A study of Mus musculus with 30 samples.

Results

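Mesenteric lymph nodes drain the gut, and their CD4+ T cells include a CD25+ fraction rich in regulatory T (Treg) cells. CD25 is the alpha chain of the interleukin-2 receptor (Il2ra). Treg cells restrain other T cells, depend on interleukin-2 made by those cells, and carry inhibitory and costimulatory surface proteins such as CTLA-4, GITR and OX40. CD25 is also carried by recently activated T cells and by some innate lymphoid cells, so a CD25 gate is not specific to Treg cells.

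The 8 arrays described here were chosen by their titles: 5 of sorted CD4+CD25+ cells and 3 of sorted CD4+CD25- cells, both from mesenteric nodes, out of 30 arrays in the series. Every group used here came from NOD mice, an inbred strain that develops autoimmune diabetes, aged 4 weeks and carrying the BDC2.5 T cell receptor transgene, so the CD25- cells carried it too. The transgene encodes a receptor for a pancreatic islet antigen. Another 6 arrays, 3 of CD4+CD25+ and 3 of CD4+CD25- cells from peripheral nodes of the same kind of mouse, served for comparison and for the estimate of spread. RNA from the sorted cells was amplified, and the labels that describe this name 2 rounds. It was then hybridised to Affymetrix MG-U74Av2 arrays, which hold 12488 probe sets. These are groups of short oligonucleotides that each give 1 intensity, and not all of them name a single gene. The labels do not say that replicates came from separate animals, whether animals were pooled, or their sex. The p-values therefore measure only the spread between these samples. All levels below are log2 of the deposited intensity, so a difference of 1 is a doubling, and the number of arrays limits the precision.

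Labels disagreed among themselves in 2 places. For 1 array, titled as mesenteric CD25+ replicate 2, the source name reads CD25-. Its Il2ra level was 5.50, within the range of 5.34 to 6.23 over all 5 CD25+ arrays and above the 4.08 to 4.11 of the 3 CD25- arrays, and the title was followed. Without that array 1429 probe sets passed the test, against 1514 with it. The tissue field of the 6 peripheral arrays reads mesenteric although their titles and source names say peripheral, and here too the title decided. The first principal component, with 51.0% of the variance, put the mesenteric CD25+ arrays between -32.4 and -10.2 and the CD25- arrays between 19.6 and 27.0. Replicates 4 and 5 of the CD25+ cells lay furthest out, at -32.4 and -27.0. Peripheral CD25+ replicate 1 stood apart from its group at 2.58, so the main values of the peripheral comparison are given without it as well.

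**Figure D1:**
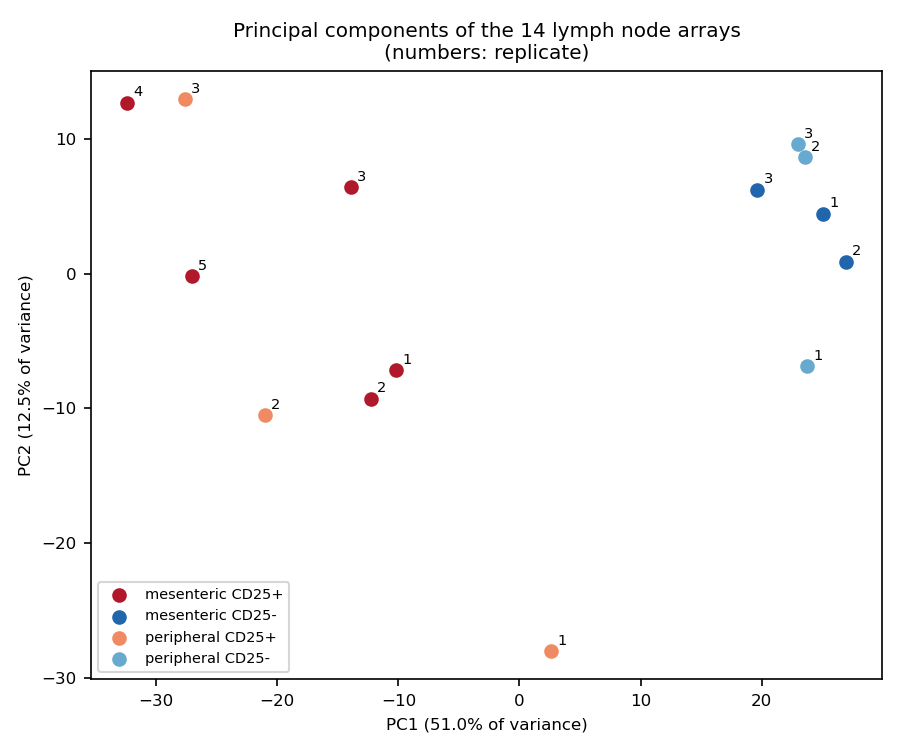
First against second principal component of the 14 lymph node arrays, with 51.0% and 12.5% of the variance, coloured by group and numbered by replicate. Mesenteric CD25+ arrays lie at -10.2 or below on the first component, all CD25- arrays at 19.6 or above, and peripheral CD25+ replicate 1 lies at 2.58.

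As a check of the sort, Il2ra itself had levels of 5.58, 5.50, 6.23, 5.67 and 5.34 in CD25+ cells, against 4.08, 4.10 and 4.11 in CD25- cells. The groups did not overlap, and the difference was 1.57 ± 0.16 (SE, limma adjusted p = 7.12e-05). Cd4, the coreceptor used in both sorts, was 0.32 lower in CD25+ cells and did not pass the test (adjusted p = 0.0673). Foxp3, the factor that defines Treg cells, has no probe set under a single gene symbol on this array, so the CD25+ cells could not be checked against it. In such bulk samples a larger share of cells that express a gene and more RNA per cell cannot be told apart.

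The CD25+ and CD25- cells differed widely. By limma with Benjamini-Hochberg adjustment over 12422 probe sets, 1514 (12.2%) passed an adjusted p of 0.05, with 579 higher (4.66%) and 935 lower (7.53%) in CD25+ cells. Of these, 145 were at least 2-fold higher and 306 at least 2-fold lower. Taken by gene, with each gene represented by its brightest probe set, 453 of 8251 genes (5.49%) were higher and 756 (9.16%) were lower, or 14.7% in all. The arrays of the groups did not overlap for 2036 genes (24.7%). The median difference over all probe sets was 0.04. When each array was centred on its median, the split was 400 higher and 1068 lower, or 27.2% higher in place of 38.2%. The total depended on the CD25- arrays: it was 798 without replicate 1 (258 higher and 540 lower) and 743 without replicate 2 (200 higher and 543 lower). The higher calls also numbered 378 without CD25+ replicate 4 and 375 without CD25+ replicate 5. The array numbers in the labels fall into 2 runs that each hold both groups. With the run as a block 1458 passed, and within the runs alone 548 and 108 did.

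The gene most raised in CD25+ cells belongs to the gamma chain locus of the T cell receptor. Trgv1, a variable segment on chromosome 13, had levels of 9.98, 10.001, 9.93, 9.95 and 10.19 in CD25+ cells, against 5.46, 5.39 and 5.82 in CD25- cells. Every CD25+ array lay more than 4 units above every CD25- array, and the difference of 4.45 ± 0.13 (SE, adjusted p = 1.27e-10) was the largest rise of any gene tested. Trgv4, another segment of that locus, had 5.14, 5.19, 5.55, 6.06 and 5.82 against 2.99, 3.18 and 3.25, a difference of 2.41 ± 0.30 (SE, adjusted p = 0.000224). Of the 4 measured genes listed as markers of gamma delta T cells, these and Blk rose (all genes: 5.49%), while Sox13 did not pass. The segments of this locus resemble each other, so the probe sets may not tell them apart.

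After Trgv1 came an adjacent pair of membrane protein genes, Tmem176a and Tmem176b. Tmem176a had 8.20, 8.66, 7.72, 9.58 and 8.03 in CD25+ cells, against 4.33, 4.35 and 4.40 in CD25- cells, a 16.9-fold difference (log2 4.08 ± 0.33, adjusted p = 8.51e-06). Tmem176b had 9.64, 10.41, 9.19, 10.81 and 9.35, against 5.91, 5.69 and 5.84, a 16.8-fold difference (log2 4.07 ± 0.32, adjusted p = 6.54e-06). Both genes were highest in replicates 4 and 2 and lowest in replicates 3 and 5, so the CD25+ arrays differed among themselves by more than 1 unit. In the RefSeq windows on GRCm38.p6 the pair lie on opposite strands of chromosome 6. Tmem176a has 2 windows and Tmem176b has 3, and the starts of the first listed window of each were 346 bases apart.

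Socs2, a feedback inhibitor that cytokine signalling induces, had levels of 9.19, 8.99, 9.06, 7.87 and 8.64 in CD25+ cells, against 5.18, 5.28 and 4.71 in CD25- cells. The groups did not overlap, and the difference was 3.69 ± 0.24 (SE, adjusted p = 8e-07). Nrp1, a semaphorin coreceptor carried by Treg cells of thymic origin, had 7.88, 8.02, 8.17, 8.55 and 7.80, against 4.29, 4.66 and 4.37. Its difference was 3.64 ± 0.16 (SE, adjusted p = 2.34e-08), and its other probe set rose by 2.85. Ccr6, the receptor for the gut chemokine CCL20, had 9.34, 9.55, 9.31, 10.56 and 9.47, against 6.43, 6.55 and 6.88, a difference of 3.02 ± 0.25 (SE, adjusted p = 9.98e-06).

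**Figure D2:**
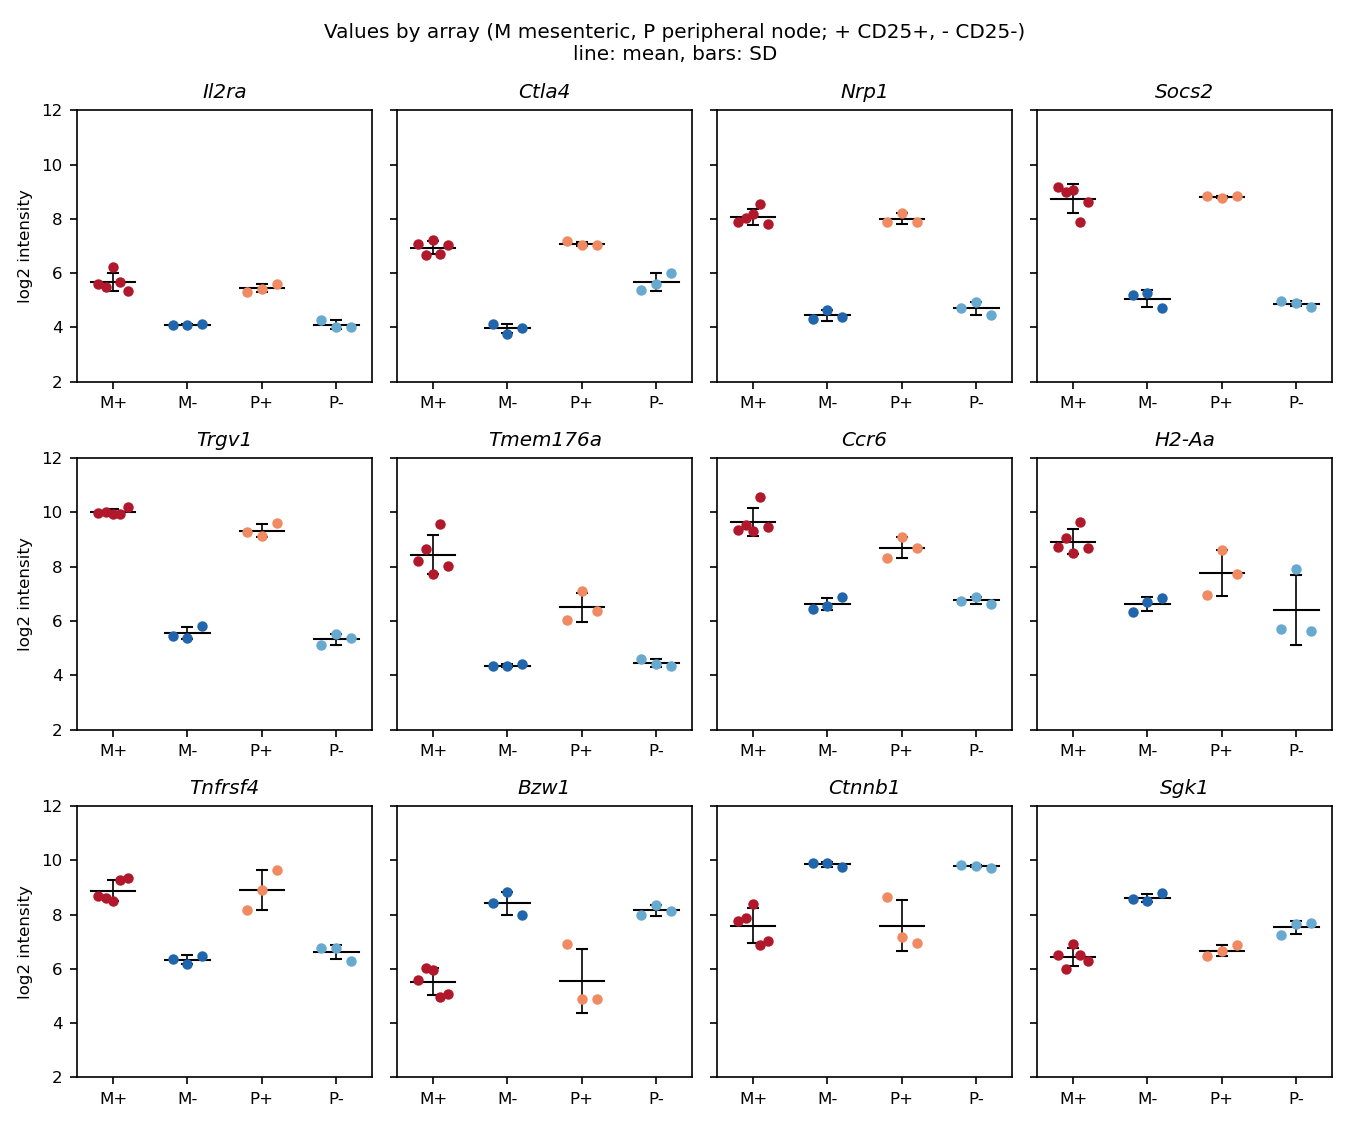
Log2 intensity of 12 genes on each of the 14 lymph node arrays, with mesenteric CD25+, mesenteric CD25-, peripheral CD25+ and peripheral CD25- cells from left to right, lines for means and bars for SD. Mesenteric CD25+ and CD25- arrays do not overlap for any of the 12 genes, and Trgv1 lies at 9.93 to 10.19 in CD25+ cells and 5.39 to 5.82 in CD25- cells.

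Of 26 measured members of a list of genes known from Treg cells, 16 rose, 10 did not pass and none fell by limma. None fell at an unadjusted p under 0.05 either. The median difference was 0.63 against 0.05 over all genes, of which 5.49% rose and 9.16% fell. This list and the other gene lists were chosen with earlier results of these data known, so their counts are descriptions. Ctla4, the inhibitory receptor that competes with CD28, had levels of 7.06, 6.68, 7.24, 6.69 and 7.02 in CD25+ cells, against 4.12, 3.77 and 3.99 in CD25- cells. That is a 7.87-fold difference (log2 2.98 ± 0.15, adjusted p = 9.64e-08), with no overlap. Klrg1, an inhibitory receptor of mature effector and regulatory cells, had 7.28, 7.56, 7.21, 6.89 and 7.32, against 4.76, 4.93 and 4.09, a difference of 2.66 ± 0.25 (SE, adjusted p = 3.93e-05). Gpr83, a receptor enriched in Treg cells, was much dimmer, with 4.90, 4.62, 4.17, 5.46 and 5.75 against 2.80, 3.03 and 2.75. It rose by 2.12 ± 0.30 (SE, adjusted p = 0.000587).

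Several list members did not pass. Ikzf2, which encodes the Treg-associated factor Helios, differed by 0.29 (adjusted p = 0.116), and Icos, a costimulatory receptor, by 0.24 (adjusted p = 0.378). Il10, an inhibitory cytokine, differed by 0.38 (adjusted p = 0.218), with CD25+ levels of 4.18, 4.39, 5.01, 4.34 and 5.08 against 4.17, 4.17 and 4.32. Itgae, the integrin chain that binds E-cadherin on epithelium, had 4.64, 4.24, 4.67, 4.34 and 5.40 against 4.01, 3.56 and 3.64. These did not overlap, but the difference of 0.92 ± 0.34 (SE) missed the threshold at an adjusted p of 0.104. Its other, dimmer probe set was called higher, by 0.67 (adjusted p = 0.0499).

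In the costimulation and TNF receptor family, 4 of 18 measured members rose and none fell by limma (all genes: 5.49% and 9.16%). None fell at an unadjusted p under 0.05 either, and the median was 0.18. The 2 receptors of this family best known from Treg cells rose most. Tnfrsf4, which encodes OX40, had levels of 8.68, 8.61, 8.50, 9.26 and 9.34 in CD25+ cells, against 6.38, 6.17 and 6.48 in CD25- cells, a difference of 2.53 ± 0.28 (SE, adjusted p = 0.000127). Tnfrsf18, which encodes GITR, had 9.28, 9.47, 8.73, 9.45 and 9.31, against 7.65, 7.31 and 7.37, a difference of 1.80 ± 0.20 (SE, adjusted p = 0.000134). Tnfrsf1b, the second TNF receptor, rose by 1.14 ± 0.15 (SE, adjusted p = 0.000366). Pdcd1, the inhibitory receptor PD-1, rose by 0.51 (adjusted p = 0.037), a call lost without mesenteric CD25+ replicate 2, 3, 4 or 5, any mesenteric CD25- array or peripheral CD25- replicate 2. Downstream of these receptors, the adaptor Traf1 rose by 1.34 (adjusted p = 0.00518) and the NF-kB inhibitor Nfkbia by 0.90 (adjusted p = 0.00454). Birc2, a ubiquitin ligase, fell by 0.83 (adjusted p = 0.00214), with -0.12 (adjusted p = 0.6) at its other probe set.

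Receptors for cytokines and the feedback inhibitors they induce were mostly higher where they changed. Of 21 measured, 8 rose and 1 fell (all genes: 5.49% and 9.16%), with a median of 0.30. The single fall was of Il27ra, the interleukin-27 receptor, by 0.44 (adjusted p = 0.028), and its call was lost without mesenteric CD25+ replicate 4 or 5 or any mesenteric CD25- array. Il6ra, the interleukin-6 receptor, rose by 0.98 (adjusted p = 0.00929), and missed the threshold without CD25- replicate 1 or 2. Besides Socs2, the related inhibitors Cish and Socs1 rose. Cish had 6.75, 6.91, 7.01, 6.89 and 7.14 in CD25+ cells, against 6.04, 5.87 and 6.14 in CD25- cells, a difference of 0.92 ± 0.14 (SE, adjusted p = 0.00121). Socs1 rose by 0.87 ± 0.15 (SE, adjusted p = 0.00241). The kinase Pim1, another gene that interleukin-2 signalling induces through STAT5, rose by 1.32 ± 0.19 (SE, adjusted p = 0.000808).

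Cish is known as a target of STAT5, the factor that the interleukin-2 receptor activates. Its promoter window is shown because it holds 2 copies of the palindrome that STAT factors bind, TTCNNNGAA, searched on both strands and printed in capitals. The RefSeq window lies on GRCm38.p6 at chr9:107296409-107296708, plus strand, and runs from 250 bases before to 50 bases after the start.
Cish: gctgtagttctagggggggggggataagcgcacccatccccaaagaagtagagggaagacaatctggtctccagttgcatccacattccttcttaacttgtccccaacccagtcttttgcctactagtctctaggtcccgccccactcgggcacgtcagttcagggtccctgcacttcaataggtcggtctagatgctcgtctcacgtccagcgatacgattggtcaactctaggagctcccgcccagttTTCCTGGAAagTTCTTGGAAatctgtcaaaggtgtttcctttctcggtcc
The matches begin at bases 1 and 12 of the transcribed part of the window. The motif occurred in 8.3% of 32851 promoter windows, in 9.57% of 491 windows of genes called higher and in 6.08% of 839 windows of genes called lower. A match is a run of letters and not a measured binding site. Socs2 has no window in the table.

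Among receptors for inflammatory cytokines, Il18r1, the interleukin-18 receptor, had levels of 7.35, 7.11, 7.13, 7.57 and 7.10 in CD25+ cells, against 6.09, 5.79 and 6.09 in CD25- cells. It rose by 1.26 ± 0.15 (SE, adjusted p = 0.000155). Il1r1, the signalling receptor for interleukin-1, had 5.50, 5.45, 4.82, 6.15 and 5.0, against 3.61, 3.88 and 3.86, a difference of 1.60 ± 0.23 (SE, adjusted p = 0.000746). Neither gene's groups overlapped. Ifngr1, the ligand-binding chain of the interferon gamma receptor, rose less, by 0.51 (adjusted p = 0.00978).

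Of 20 measured receptors and integrins of chemotaxis and homing, 4 rose and 1 fell (all genes: 5.49% and 9.16%), with a median of 0.20. The single fall was of S1pr1, the receptor that guides T cells out of lymph nodes, by 0.51 (adjusted p = 0.0398). It was lost without mesenteric CD25+ replicate 2, 3, 4 or 5, mesenteric CD25- replicate 1 or 2 or any peripheral CD25- array. After Ccr6, Ccr2, a receptor for inflammatory chemokines, rose by 1.04 ± 0.19 (SE, adjusted p = 0.00276). Itgb1, the beta-1 integrin chain, was already bright, with 9.92, 10.09, 9.89, 9.88 and 10.07 in CD25+ cells against 8.89, 9.30 and 9.01 in CD25- cells. It rose by 0.90 ± 0.11 (SE, adjusted p = 0.000239). Cxcr3, a receptor for interferon-induced chemokines, rose by 0.65 (adjusted p = 0.0497) and was lost in 10 of the 14 fits that left out 1 array, namely those without mesenteric CD25+ replicate 3, 4 or 5, any mesenteric or peripheral CD25- array or peripheral CD25+ replicate 2. The gut-homing receptor Ccr9 differed by 0.14 and did not pass (adjusted p = 0.423).

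Of 26 measured genes of adhesion, calcium binding and the cytoskeleton, 12 rose and 1 fell (all genes: 5.49% and 9.16%). Their median difference was 0.54. The single fall was of Cnn3, a calponin that binds actin, by 0.95 (adjusted p = 0.0116). It was lost without CD25- replicate 2, and 2 genes fell without CD25+ replicate 1 or 3. S100a6, a calcium-binding protein, had 7.21, 7.06, 8.08, 7.86 and 7.96 in CD25+ cells, against 4.51, 4.62 and 4.8 in CD25- cells, a difference of 2.99 ± 0.30 (SE, adjusted p = 7.3e-05). The related S100a4 rose by 2.00 ± 0.36 (SE, adjusted p = 0.00305) and S100a10 by 0.84 ± 0.17 (SE, adjusted p = 0.00519). Lgals1, which encodes the glycan-binding protein galectin-1, had 7.97, 7.76, 8.89, 9.68 and 9.67, against 6.52, 6.5 and 6.27, and rose by 2.36 ± 0.52 (SE, adjusted p = 0.00894). Its spread within CD25+ cells was wide, since replicates 1 and 2 lay well below the other CD25+ arrays. The membrane-binding annexins Anxa1 and Anxa2 rose by 1.24 (adjusted p = 0.00985) and 1.44 (adjusted p = 0.00438).

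**Figure D3:**
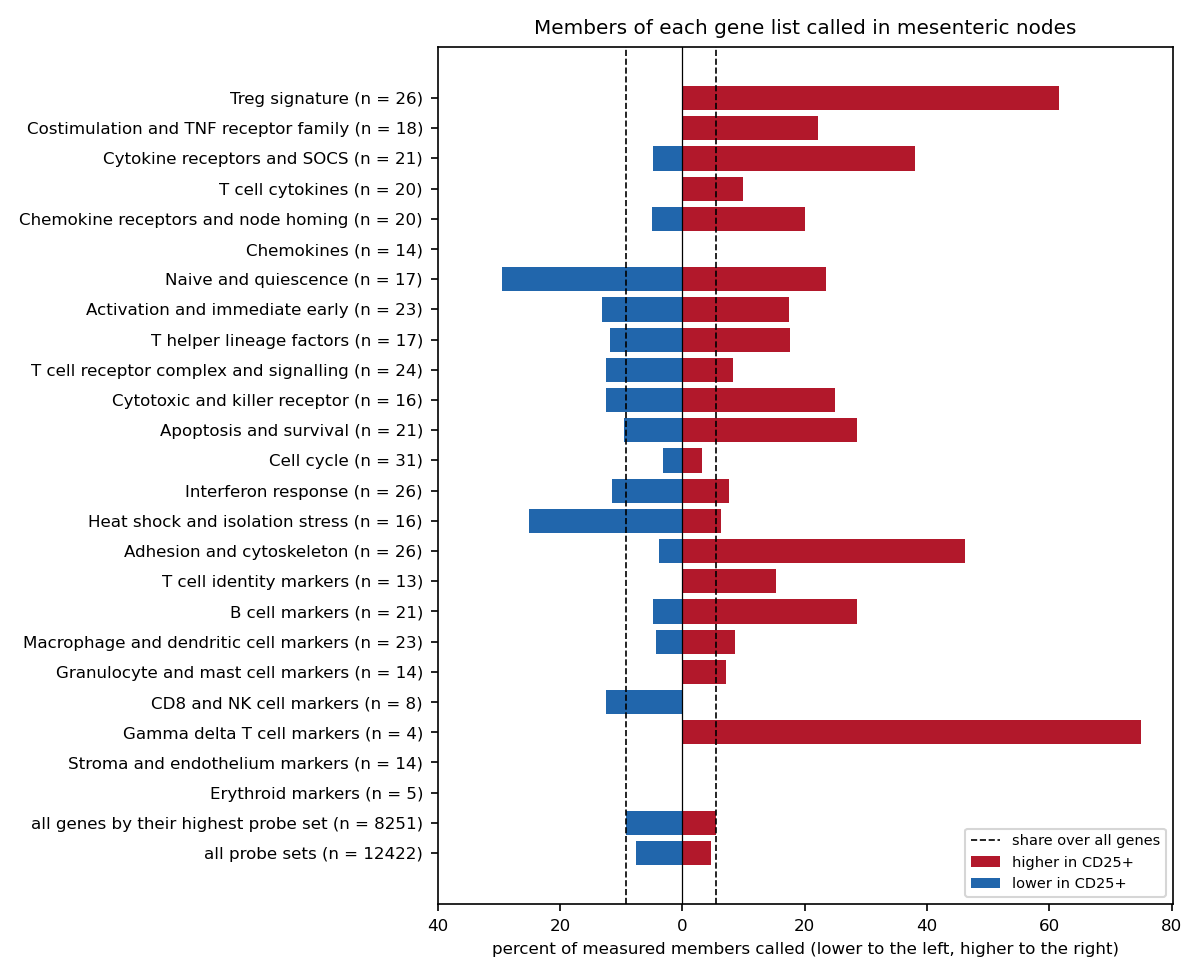
Percent of the measured members of each gene list called higher (to the right) and lower (to the left) in mesenteric CD25+ cells, with the shares over all genes, 5.49% higher and 9.16% lower, as dashed lines. The Treg signature has 16 of 26 members higher and the adhesion list 12 of 26.

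Cytotoxic genes moved in both directions: of 16 measured, 4 rose and 2 fell (all genes: 5.49% and 9.16%). Without CD25- replicate 1 or 2, 1 fell. Gzmb, the protease granzyme B, had 6.70, 6.67, 7.62, 6.70 and 8.01 in CD25+ cells, against 4.51, 4.71 and 4.66 in CD25- cells, a 5.69-fold difference (log2 2.51 ± 0.40, adjusted p = 0.00129). Perforin, the pore protein that granzymes are delivered with, did not follow, and Prf1 differed by -0.19 (adjusted p = 0.341). Ctsw, a protease of cytotoxic lymphocytes, rose by 0.83 (adjusted p = 0.00519), and Klrd1, the receptor chain CD94, fell by 1.08 ± 0.16 (SE, adjusted p = 0.000893). The other fall was of Fasl, a death ligand, by 0.42 (adjusted p = 0.0103), which was lost without CD25- replicate 1 or 2. Klrb1b, a C-type lectin of the NKR-P1 family, had 8.52, 9.20, 8.05, 9.13 and 8.0, against 6.16, 5.88 and 5.85, and rose by 2.62 ± 0.25 (SE, adjusted p = 4.48e-05).

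Of 20 measured T cell cytokines, 2 rose and none fell by limma (all genes: 5.49% and 9.16%). At an unadjusted p under 0.05, 1 was lower. Both rises belong to the lymphotoxin system, which organises lymphoid tissue. Lta had 6.84, 7.14, 7.78, 8.54 and 7.66 in CD25+ cells, against 5.62, 5.69 and 5.70 in CD25- cells, and rose by 1.92 ± 0.30 (SE, adjusted p = 0.00128), while its other probe set differed by -0.09. Ltb rose by 1.26 ± 0.34 (SE, adjusted p = 0.0254). The count was 1 when CD25+ replicate 4 or 5 or any CD25- replicate was left out, since Ltb then missed the threshold, with 1.24 and an adjusted p of 0.0944 without CD25- replicate 1. Ifng differed by 0.13 (adjusted p = 0.39) and Il17a by -0.04 (adjusted p = 0.837).

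Several of the most raised genes are also known from type 3 innate lymphoid cells (ILC3) and their lymphoid tissue inducer relatives, which are abundant near the gut, lack a rearranged T cell receptor and in part express CD4 and CD25. A list of 24 genes described in those cells was drawn up after these values had been seen, so its count is a description. Of 19 measured, 12 were called higher and none lower by limma (all genes: 5.49% and 9.16%). None was lower at an unadjusted p under 0.05 either, and the median was 1.32. In peripheral nodes 7 of the 19 were called higher and 1 lower, with a median of 0.78. Over all 8251 genes, 169 were called higher and 596 lower there. The list shares Nrp1, Ahr and other genes with Treg cells. Id2, a regulator needed by innate lymphoid cells and raised in effector T cells too, had 8.40, 8.57, 7.98, 9.25 and 8.25 in CD25+ cells, against 6.39, 6.26 and 7.11 in CD25- cells, a difference of 1.90 ± 0.28 (SE, adjusted p = 0.00073). Ahr, a sensor of dietary and microbial ligands, rose by 1.78 ± 0.21 (SE, adjusted p = 0.000168). Kit, the stem cell factor receptor, had 5.94, 6.34, 5.76, 6.16 and 5.55, against 4.65, 4.78 and 4.45, and rose by 1.32 ± 0.25 (SE, adjusted p = 0.00363).

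Other members of that list did not pass. Rora differed by 0.35 (adjusted p = 0.0821), Tnfsf11, the ligand RANKL, by 0.54 (adjusted p = 0.0887), Cxcr5, a follicle-homing receptor, by 0.45 (adjusted p = 0.14), and Il7r, the interleukin-7 receptor, by -0.46 (adjusted p = 0.209). The mean level over the 19 genes ran from 6.44 to 7.19 over the mesenteric CD25+ arrays, with replicate 4 at the top. Over the mesenteric CD25- arrays it ran from 5.06 to 5.16. In peripheral nodes it ran from 5.99 to 6.20 in CD25+ arrays and from 5.22 to 5.32 in CD25- arrays. The part of such cells in the differences was not tested.

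Several genes of MHC class II, which present antigen to CD4+ T cells and in the mouse are mainly expressed by B cells, dendritic cells and macrophages, and also by ILC3, were higher in the sorted CD25+ cells. H2-Aa had 8.71, 9.06, 8.51, 9.65 and 8.69 in CD25+ cells, against 6.32, 6.72 and 6.85 in CD25- cells, a difference of 2.30 ± 0.47 (SE, adjusted p = 0.00639). H2-Eb1 had 8.30, 8.77, 7.77, 9.48 and 8.34, against 6.64, 6.77 and 6.64, a difference of 1.84 ± 0.39 (SE, adjusted p = 0.00688). For both, replicate 4 was the highest array and replicate 3 the lowest of the CD25+ group, and no array overlapped with the CD25- group.

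Cd74, the invariant chain that escorts class II molecules, rose by 1.31 (adjusted p = 0.0119), H2-Ab1 by 1.03 (adjusted p = 0.018) and H2-Oa by 0.51 (adjusted p = 0.045). These made 5 called higher of 10 measured genes of the class II pathway (all genes: 5.49%), a list chosen after the values were seen. The count fell to 2 without CD25- replicate 1 or 3 and to 3 without CD25- replicate 2. Without CD25- replicate 1, Cd74 had 1.28 (adjusted p = 0.0543), H2-Ab1 had 1.00 (adjusted p = 0.0762) and H2-Oa had 0.51 (adjusted p = 0.123), and H2-Oa was lost in 10 of the 14 fits that left out 1 array.

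Promoters of classical class II genes share a Y box, bound by NF-Y. The windows of H2-Aa and H2-Eb1 are shown with the letters of that box, CTGATTGG, in capitals, searched on both strands. They lie on GRCm38.p6 at chr17:34287774-34288073, minus strand, and chr17:34305617-34305916, plus strand, both from RefSeq and both read along the gene.
H2-Aa: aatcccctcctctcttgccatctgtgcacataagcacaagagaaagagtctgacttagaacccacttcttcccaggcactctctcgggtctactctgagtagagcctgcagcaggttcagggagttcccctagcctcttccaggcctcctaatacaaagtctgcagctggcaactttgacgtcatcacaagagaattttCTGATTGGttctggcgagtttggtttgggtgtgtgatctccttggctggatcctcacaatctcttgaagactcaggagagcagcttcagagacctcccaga
H2-Eb1: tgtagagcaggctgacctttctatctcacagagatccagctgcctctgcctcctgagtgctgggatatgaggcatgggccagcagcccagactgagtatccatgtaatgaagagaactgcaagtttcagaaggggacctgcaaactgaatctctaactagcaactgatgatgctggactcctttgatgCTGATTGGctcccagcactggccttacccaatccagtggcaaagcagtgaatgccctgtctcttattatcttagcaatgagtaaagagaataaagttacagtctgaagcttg
The match begins 51 bases before the start in H2-Aa and 62 bases before it in H2-Eb1. The same letters occurred in 4.1% of 32851 windows, in 4.28% of 491 windows of genes called higher and in 5.48% of 839 windows of genes called lower. H2-Ab1 has no window in the table.

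Markers of other cell types are given beside these rises. Of 21 measured B cell markers, 6 rose and 1 fell (all genes: 5.49% and 9.16%). The class II genes H2-Aa, H2-Ab1, H2-Eb1 and Cd74 were 4 of the rises. The rises numbered 2 without CD25- replicate 1 or 3, and the fall was of Pou2af1, a coactivator of B cells, by 0.75 (adjusted p = 0.0354). It was lost in 7 of the 14 fits that left out 1 array, those without mesenteric CD25+ replicate 1, 2, 3 or 5 or any mesenteric CD25- array. The other rises were Blk, a kinase of B and gamma delta T cells, by 1.59 (adjusted p = 0.0158, with 0.21 and an adjusted p of 0.36 at its other probe set), and Cd79b, a chain of the B cell receptor, by 1.07 (adjusted p = 0.0231). Without CD25- replicate 1 Blk had 1.40 (adjusted p = 0.089) and without CD25- replicate 2 Cd79b had 1.03 (adjusted p = 0.0947). Blk was also lost without CD25- replicate 3, and Cd79b without any CD25- array. Cd79a, the partner of Cd79b, had 5.48, 5.82, 5.53, 5.31 and 5.54 in CD25+ cells, against 5.32, 5.43 and 5.68 in CD25- cells. Ms4a1, which encodes CD20, had 6.60, 6.20, 6.26, 5.75 and 5.89, against 6.06, 6.96 and 6.71. The groups overlapped for both, and neither passed (adjusted p = 0.821 and 0.645).

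The 13 measured T cell identity markers had a mean level of 7.655 to 8.14 in CD25+ arrays and of 7.37 to 7.646 in CD25- arrays. By limma 2 of them were called higher and none lower (all genes: 5.49% and 9.16%). At an unadjusted p under 0.05, 4 were higher and 2 lower. The mean level of the 21 B cell markers ran from 5.49 to 5.77 in CD25+ arrays and from 5.07 to 5.32 in CD25- arrays. For 23 macrophage and dendritic cell markers it ran from 4.8 to 4.91 against 4.70 to 4.78, for 14 granulocyte and mast cell markers from 4.08 to 4.18 against 3.93 to 4.01, and for 14 stromal and endothelial markers from 4.47 to 4.62 against 4.47 to 4.53. The means of 5 erythroid markers overlapped, from 4.96 to 5.78 against 5.24 to 5.49. The 8 markers of CD8 and NK cells ran lower, from 3.57 to 3.72 against 3.74 to 3.78, and Cd8a differed by -0.11 (adjusted p = 0.743). The deposited values carry no call of presence, so a low level cannot be told from background. The part of these cells in the differences was not tested. Batf3, listed with dendritic cells and also made by activated T cells, rose by 1.05 (adjusted p = 0.00585).

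**Figure D4:**
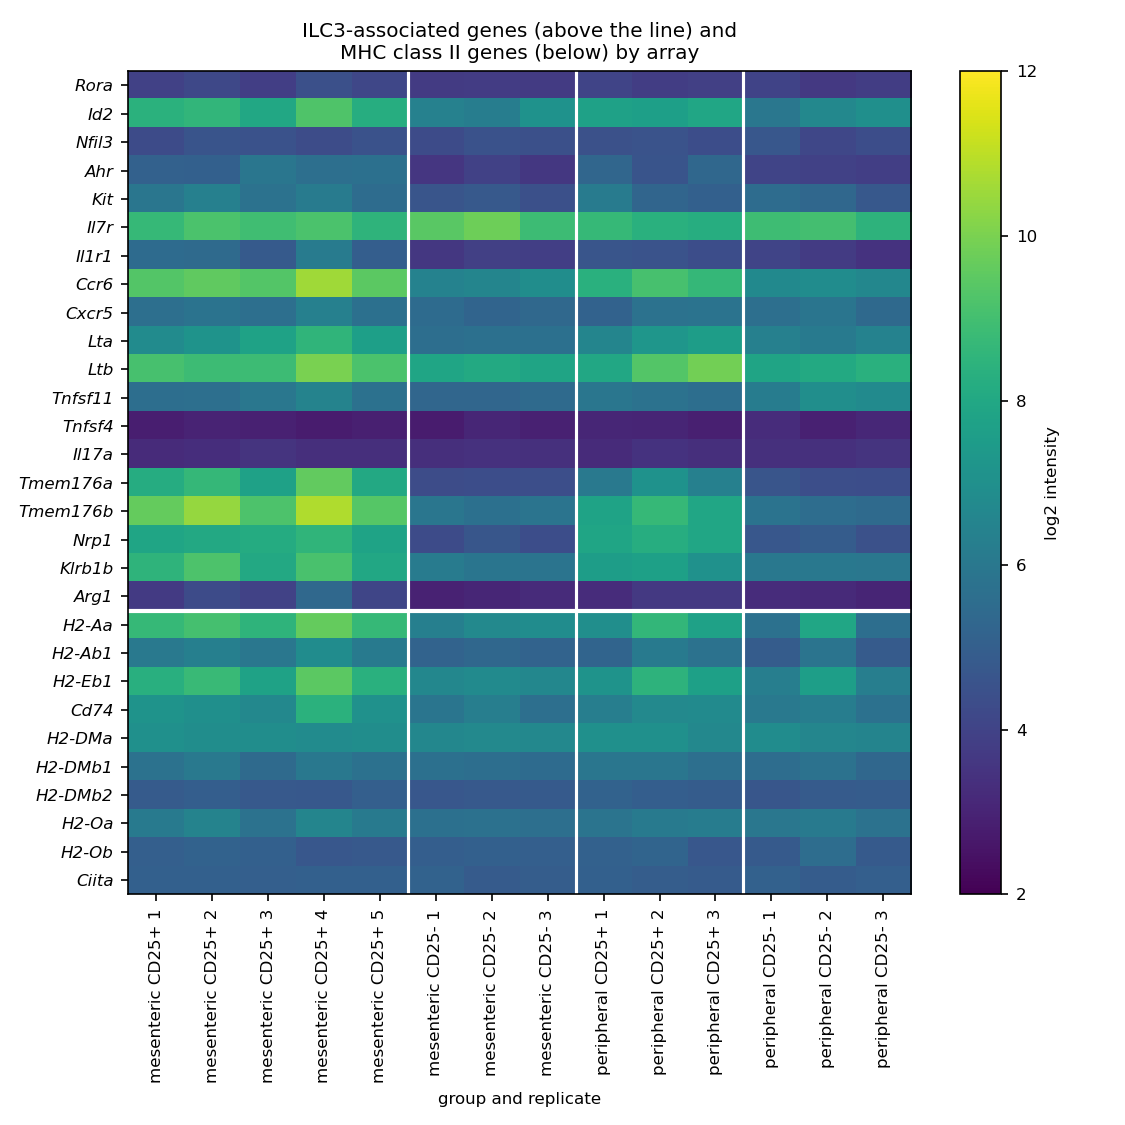
Log2 intensity by array of 19 genes known from ILC3 (above the white line) and 10 genes of the MHC class II pathway (below it), for mesenteric CD25+, mesenteric CD25-, peripheral CD25+ and peripheral CD25- arrays from left to right. Tmem176b lies at 9.19 to 10.81 in mesenteric CD25+ arrays and at 5.69 to 5.91 in mesenteric CD25- arrays, and H2-Aa is highest in mesenteric CD25+ replicate 4.

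Other genes among the 20 largest rises have no shared role on the lists. Cpe, a carboxypeptidase that processes peptide hormones, had 5.04, 5.56, 5.35, 5.67 and 3.91 in CD25+ cells, against 2.51, 2.79 and 2.68 in CD25- cells, and rose by 2.45 ± 0.32 (SE, adjusted p = 0.000393). Cntn1, an adhesion molecule of neurons, had 4.95, 4.98, 5.35, 6.35 and 4.52, against 3.02, 3.07 and 3.12, and rose by 2.16 ± 0.29 (SE, adjusted p = 0.000388). Xist, the RNA that coats the inactive X chromosome, had 7.43, 7.16, 7.44, 7.74 and 8.54, against 4.64, 4.75 and 6.60. It rose by 2.33 ± 0.46 (SE, adjusted p = 0.00507), with CD25- replicate 3 far above the other CD25- arrays. Eif2s3y, on the Y chromosome, had 6.35, 5.0, 5.51, 5.61 and 4.21 against 5.82, 6.86 and 6.35, and did not pass (adjusted p = 0.156). The labels give no sex, and its part in these values was not tested.

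Genes of naive and resting T cells moved in both directions. Of 17 measured, 4 rose and 5 fell (all genes: 5.49% and 9.16%), with a median of -0.34. The rises numbered 2 without CD25- replicate 1 and 1 without CD25- replicate 2, and the falls 3 without CD25- replicate 2 or CD25+ replicate 5. Nsg2 had 5.10, 5.11, 5.03, 5.25 and 5.0 in CD25+ cells, against 6.80, 6.44 and 6.35 in CD25- cells, and fell by 1.43 ± 0.16 (SE, adjusted p = 0.000132). Satb1, a chromatin organiser of T cells, had 6.89, 6.94, 7.82, 7.17 and 7.15, against 7.96, 8.55 and 8.65, and fell by 1.19 ± 0.24 (SE, adjusted p = 0.00602). Lef1, a partner of beta-catenin, fell by 0.36 ± 0.07 (SE, adjusted p = 0.00519), but its other probe set differed by 0.32 (adjusted p = 0.294).

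The rises on the naive list included Id3 and Klf3. Id3, which restrains E proteins, rose by 0.93 ± 0.19 (SE, adjusted p = 0.00646). Klf3, a transcriptional repressor, had 7.53, 7.16, 6.64, 7.72 and 8.01, against 4.83, 4.43 and 6.57, and rose by 2.14 ± 0.45 (SE, adjusted p = 0.00684), while its other probe set differed by -0.05 (adjusted p = 0.813). As with Xist, CD25- replicate 3 lay far above the other CD25- arrays, and the part of sex or pooling was not tested. The difference was 1.71 without CD25- replicate 2, where it missed the threshold (adjusted p = 0.0524).

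Of 24 measured genes of the T cell receptor complex and its signalling, 2 rose and 3 fell (all genes: 5.49% and 9.16%). Their median difference was 0.03. Cd2, an adhesion receptor, had 9.36, 9.45, 9.87, 10.47 and 10.37 in CD25+ cells, against 8.43, 7.88 and 8.43 in CD25- cells, and rose by 1.66 ± 0.34 (SE, adjusted p = 0.00639). Cd5, an inhibitor of receptor signalling, rose by 1.41 ± 0.35 (SE, adjusted p = 0.0165), but by 1.28 with an adjusted p of 0.0874 without CD25- replicate 2. Ptpn22, a phosphatase that dampens receptor signalling, fell by 0.90 ± 0.13 (SE, adjusted p = 0.000887). Cd3e differed by -0.34 (adjusted p = 0.17). The rises numbered 1 without CD25- replicate 2 and 4 without peripheral CD25+ replicate 1 or 3, and the falls 1 without CD25+ replicate 4 or 5 or CD25- replicate 1 or 2.

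Falls outnumbered rises among all genes, and several of the largest were in regulators of signalling. Sgk1, a kinase induced by salt, hormones and cytokines, had 6.53, 6.0, 6.91, 6.5 and 6.28 in CD25+ cells, against 8.58, 8.50 and 8.79 in CD25- cells, and fell by 2.18 ± 0.18 (SE, adjusted p = 8.51e-06). Dusp6, a phosphatase that turns off ERK kinases, had 5.71, 5.14, 5.50, 4.62 and 4.58, against 7.69, 7.05 and 6.93, and fell by 2.11 ± 0.32 (SE, adjusted p = 0.000974), while its other probe set differed by -0.15. Pag1, a membrane adaptor that recruits the inhibitory kinase CSK, fell by 1.81 ± 0.21 (SE, adjusted p = 0.000155), with -0.18 at its other probe set.

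Ctnnb1, which encodes beta-catenin, had 7.77, 7.88, 8.41, 6.88 and 7.02 in CD25+ cells, against 9.90, 9.91 and 9.74 in CD25- cells, and fell by 2.26 ± 0.37 (SE, adjusted p = 0.00153). Ly75, an endocytic receptor first known from dendritic cells, fell by 1.90 ± 0.20 (SE, adjusted p = 7.92e-05). Ugcg, which makes glucosylceramide, fell by 1.98 ± 0.23 (SE, adjusted p = 0.000155), with -0.26 at its other probe set.

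The 2 largest falls were of Tdrp and Bzw1. Tdrp had 6.12, 6.12, 5.96, 5.87 and 5.54 in CD25+ cells, against 9.0, 8.95 and 8.76 in CD25- cells, a difference of -2.98 ± 0.16 (SE, adjusted p = 1.57e-07), but its other probe set differed by 0.09. Bzw1, a regulator of translation initiation, had 5.61, 6.04, 5.96, 4.98 and 5.07, against 8.43, 8.84 and 7.97, a difference of -2.88 ± 0.41 (SE, adjusted p = 0.000589). Rrs1, a factor of ribosome assembly, had 6.32, 6.11, 5.76, 5.25 and 5.22, against 8.04, 8.15 and 7.95, a difference of -2.31 ± 0.24 (SE, adjusted p = 7.92e-05).

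The other members of the 20 largest falls covered varied cell functions. Atp6ap2, an accessory subunit of the vacuolar proton pump, fell by 2.24 and Tspyl4 by 2.22. Ubqln1, which shuttles ubiquitinated proteins, fell by 2.17, with -0.28 at its other probe set. The transporter-like Mfsd14b fell by 2.16, Ibtk, an inhibitor of the kinase BTK, by 1.99, Rcbtb1 by 1.92, the zinc finger gene Zfp871 by 1.84 and Acsl4, which activates polyunsaturated fatty acids, by 1.81. Usp33, a deubiquitinase, fell by 1.86, but its adjusted p was 0.0538 without CD25- replicate 2, with a difference of -1.71. In Bzw1, Ctnnb1, Atp6ap2, Ubqln1 and Zfp871, CD25+ replicates 4 and 5 were the 2 lowest arrays.

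Some genes of RNA-binding and splicing proteins were lower. Of 16 genes of the Hnrnp family, whose proteins coat nascent RNA, 7 fell and none rose by limma (all genes: 9.16% and 5.49%). None rose at an unadjusted p under 0.05 either, and the median was -0.61. This family was picked after its values were seen. The falls numbered 4 without CD25+ replicate 4 or 5 or CD25- replicate 1, and 3 without CD25- replicate 2. Hnrnpc had 5.37, 4.37, 5.51, 4.37 and 4.5 in CD25+ cells, against 6.23, 6.83 and 6.47 in CD25- cells, and fell by 1.69 ± 0.34 (SE, adjusted p = 0.00599). Hnrnpk fell by 1.85 ± 0.41 (SE, adjusted p = 0.01), but by 1.77 with an adjusted p of 0.0531 without CD25- replicate 2. Of 9 genes of the Srsf family of splicing factors, also picked after its values were seen, 2 fell and 7 did not pass by limma. None rose, also at an unadjusted p under 0.05, while over all genes 9.16% fell and 5.49% rose. The falls were Srsf1 and Srsf10, and Srsf9 differed by 0.52 (adjusted p = 0.239). Centring arrays on their medians gave 6 falls, and leaving out 1 array gave from 1, without CD25+ replicate 4 or 5 or any mesenteric CD25- array, to 5, without peripheral CD25+ replicate 1, and 4 without mesenteric CD25+ replicate 3 or peripheral CD25- replicate 1. Srsf1 had 6.42, 6.36, 6.44, 5.77 and 5.67, against 8.08, 8.57 and 7.53, and fell by 1.93 ± 0.31 (SE, adjusted p = 0.00151). Its other probe sets differed by 0.07, -0.17 and -1.14.

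RNA quality is given beside these falls. The log2 ratio of the 3' to the 5' control probe set of actin, which grows as RNA is shortened, was 2.70, 2.61, 2.96, 3.05 and 2.94 in CD25+ cells, against 2.57, 2.64 and 2.67 in CD25- cells. It averaged 2.85 ± 0.19 (SD, n = 5) and 2.63 ± 0.05 (SD, n = 3). The difference of 0.23 had an exact two-sided permutation p of 0.107 over 56 splits (adjusted p = 0.214 over 2 ratios), and the Gapdh ratio differed by 0.28 with an exact p of 0.286. With the actin ratio as a covariate over the 14 arrays, 1054 probe sets passed, 355 higher and 699 lower. Of the 102 called genes named here, 89 still passed in that fit. All 102 kept their direction within each of the 2 array runs. For genes picked because their groups did not overlap, that direction was fixed by the choice. CD25- replicate 3 was the only mesenteric CD25- array of the higher-numbered run. Of the 23 called genes with another probe set, 5 had one called in the same direction and 18 had none called. In 5, namely Klf3, Lef1, Lta, Srsf1 and Tdrp, another probe set had the opposite sign.

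Of 16 measured genes of heat shock and cell isolation, 1 rose and 4 fell (all genes: 5.49% and 9.16%), with a median of -0.14. Dnaja1, a cochaperone of HSP70, had 8.35, 8.36, 8.37, 7.64 and 7.70 in CD25+ cells, against 9.64, 9.70 and 9.20 in CD25- cells, and fell by 1.43 ± 0.26 (SE, adjusted p = 0.00314). The falls numbered 2 without CD25+ replicate 4 or CD25- replicate 2, and 1 without CD25+ replicate 5 or CD25- replicate 1 or 3.

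For 31 measured cell cycle genes, limma gave 10 higher and 2 lower at an unadjusted p under 0.05. Among all 12422 probe sets, 3083 had such a p in either direction. After adjustment 1 rose and 1 fell, against 5.49% higher and 9.16% lower over all genes. The rise was of Tk1, a thymidine kinase, by 0.37 (adjusted p = 0.0165), and the number of rises ranged from 0 without CD25- replicate 1 or 2 to 4 without CD25- replicate 3. Mcm4, a subunit of the replicative helicase, had 5.94, 6.15, 6.23, 5.65 and 5.58 in CD25+ cells, against 7.04, 7.09 and 7.07 in CD25- cells, and fell by 1.16 ± 0.15 (SE, adjusted p = 0.000329). Mki67, a marker of dividing cells, had 3.93, 3.79, 5.67, 4.78 and 4.66, against 3.73, 3.93 and 4.00, and did not pass (adjusted p = 0.325).

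Of 23 measured genes of activation and the immediate early response, 4 rose and 3 fell (all genes: 5.49% and 9.16%). Their median difference was 0.09. Nr4a1, an orphan nuclear receptor that T cell receptor signals induce, had 6.38, 6.39, 6.43, 6.98 and 6.85 in CD25+ cells, against 5.75, 5.38 and 5.98 in CD25- cells, and rose by 0.90 (adjusted p = 0.00813). The groups did not overlap, but it missed the threshold without CD25- replicate 2. Egr2, a factor induced by the same signals, fell by 0.63 (adjusted p = 0.0265), which was lost without CD25+ replicate 4 or 5 or any mesenteric CD25- array. The rises numbered 1 without CD25- replicate 2, and the falls 1 without CD25+ replicate 4 or 5 or CD25- replicate 1 or 2.

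Of 21 measured genes of apoptosis and survival, 6 rose and 2 fell (all genes: 5.49% and 9.16%), with a median of 0.19. The inflammatory caspase gene Casp1 had 4.13, 4.19, 4.25, 5.05 and 4.48 in CD25+ cells, against 3.61, 3.49 and 3.71 in CD25- cells, and rose by 0.81 (adjusted p = 0.00833). The related Casp4 rose by 0.95 (adjusted p = 0.0106). Casp1 missed the threshold without CD25- replicate 2 and Casp4 without CD25- replicate 1, where in each case 3 of the list rose, and 1 fell without CD25- replicate 2 or 3.

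Of 17 measured factors of T helper lineages, 3 rose and 2 fell (all genes: 5.49% and 9.16%), with a median of 0.25. The rises were Ahr and Id2, given above, and Gata3, which directs type 2 helper cells, by 0.48 (adjusted p = 0.0455). Bcl6, which directs follicular helper cells, had 5.19, 5.17, 5.21, 5.27 and 4.65 in CD25+ cells, against 6.11, 6.02 and 5.49 in CD25- cells, and fell by 0.78 (adjusted p = 0.0175). Stat4, which carries the interleukin-12 signal, fell by 0.61 (adjusted p = 0.0352). Gata3 was lost in 9 of the 14 fits that left out 1 array, those without mesenteric CD25+ replicate 1, 4 or 5, mesenteric CD25- replicate 1 or 3, peripheral CD25+ replicate 2 or any peripheral CD25- array. Stat4 was lost without CD25+ replicate 1, 4 or 5 or any mesenteric CD25- array, and Bcl6 without CD25- replicate 1 or 2, which left no fall.

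Of 26 measured genes of the interferon response, 2 rose and 3 fell (all genes: 5.49% and 9.16%), with a median of 0.01. Rsad2, an antiviral enzyme, had 6.12, 6.39, 5.48, 5.02 and 5.25 in CD25+ cells, against 7.23, 6.64 and 6.79 in CD25- cells, and fell by 1.23 (adjusted p = 0.0103). Ifit2, another interferon-induced antiviral gene, fell by 1.12 (adjusted p = 0.0105), with CD25+ replicate 3 level with CD25- replicate 2. Irgm1, a GTPase induced by interferon gamma, fell by 0.71 ± 0.16 (SE, adjusted p = 0.00918). Rsad2 and Ifit2 missed the threshold without CD25- replicate 1, where 1 of the list fell. The rises numbered 0 without CD25+ replicate 4 or 5 or CD25- replicate 1 or 2, 1 without CD25+ replicate 2 or CD25- replicate 3, and 5 and 4 without peripheral CD25+ replicates 1 and 3. None of 14 measured chemokines passed by limma (all genes: 14.7%), with 1 at an unadjusted p under 0.05.

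The same comparison in peripheral nodes asks whether these differences are found at another site. There 955 probe sets passed, 223 higher (1.80%) and 732 lower (5.89%). Of the 1514 mesenteric calls, 98.2% had the same sign in peripheral nodes and 726 were called there as well, which is 48.0% of the mesenteric and 76.0% of the peripheral calls. Without peripheral CD25+ replicate 1, 1462 passed in peripheral nodes, 552 of them higher, and the shared calls were 60.4% of the 1878 mesenteric and 77.6% of the peripheral calls. No array was shared between the comparisons, but they were fitted with 1 common estimate of spread. Across the 12422 probe sets, which are not independent, the differences had r = 0.858. Without peripheral CD25+ replicate 1, r was 0.886 and 98.1% of the mesenteric calls had the same sign.

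Most of the leading genes rose at both sites. Trgv1 rose by 4.45 in mesenteric and 4.00 in peripheral nodes, Socs2 by 3.69 and 3.94, Nrp1 by 3.64 and 3.30, Klrg1 by 2.66 and 3.42, and S100a6 by 2.99 and 3.26. Others had a larger difference in mesenteric nodes, such as Tmem176a with 4.08 and 2.04, Ccr6 with 3.02 and 1.95 and Ctla4 with 2.98 and 1.40. The mean Ctla4 level of CD25+ cells was 6.94 in mesenteric and 7.07 in peripheral nodes. In CD25- cells it was 3.96 and 5.67. Kit had 1.32 and 0.28, and H2-Aa 2.30 and 1.36. Odc1, the rate-limiting enzyme of polyamine synthesis, rose by 1.96 in mesenteric nodes (adjusted p = 0.000321) and had 0.14 in peripheral nodes (adjusted p = 0.837). Sgk1 fell by 2.18 and 0.86. Without peripheral CD25+ replicate 1 the peripheral differences were 0.36 for Odc1, -0.06 for Kit and 1.77 for H2-Aa, none of which passed (adjusted p = 0.566, 0.941 and 0.0555), while those of Trgv1, Socs2, Nrp1, Klrg1, S100a6, Tmem176a, Ccr6, Ctla4 and Sgk1 passed with the same sign.

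Only 1 of 12422 probe sets (0.00805%) passed the test of the difference between sites, and 382 had an unadjusted p under 0.05, or 896 without peripheral CD25+ replicate 3. It belongs to Eomes, which encodes a factor of cytotoxic and memory T cells. At that probe set the mesenteric levels were 2.45, 2.5, 2.39, 2.56 and 2.53 in CD25+ cells and 2.56, 2.60 and 2.59 in CD25- cells. The peripheral levels were 2.90, 3.27 and 3.31 in CD25+ cells and 5.63, 5.50 and 5.62 in CD25- cells. So the mesenteric difference was -0.10 and the peripheral one -2.42, and the mesenteric minus the peripheral difference was 2.32 ± 0.14 (SE, adjusted p = 1.93e-06). The other probe set of Eomes, which is brighter, gave 0.01 and -1.25, with an adjusted p of 0.322 for the difference between sites. Ctla4 came next, with 1.57 ± 0.23 (SE, adjusted p = 0.0564), and for no other gene named here is a difference between sites shown. The count was 2 without mesenteric CD25+ replicate 2 or 4 or peripheral CD25- replicate 1 or 3.

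**Figure D5:**
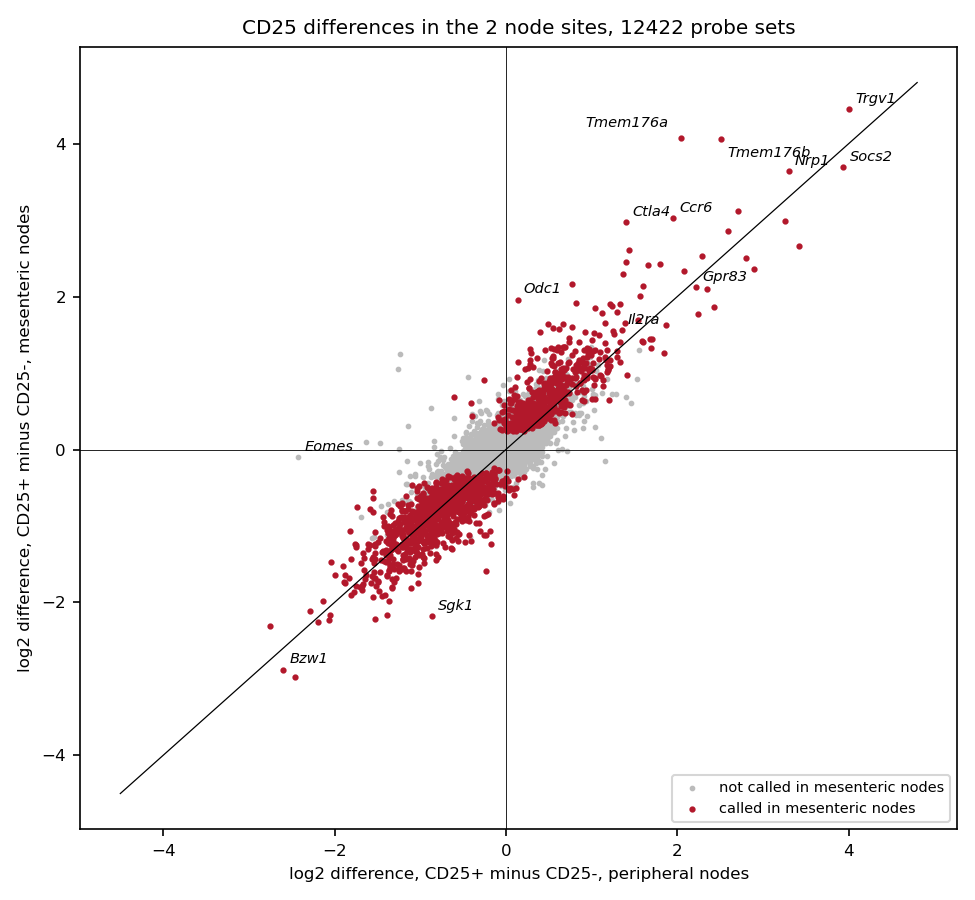
Log2 difference between CD25+ and CD25- cells in mesenteric nodes (vertical axis) against that in peripheral nodes (horizontal axis) for 12422 probe sets, those called in mesenteric nodes in red, with the line of equality. Most called probe sets lie in the same quadrants (98.2% have the same sign), Ctla4 lies at 2.98 and 1.40, and Eomes lies at -0.10 and -2.42.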

How the data were processed

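Sorted CD4+ T cells of mesenteric and peripheral nodes were measured on one-colour Affymetrix arrays. The authors deposited 1 linear intensity per probe set and array. Per the submitters' processing notes RMA was used, with the version not given in the sources used here. Array medians ran from 25.3 to 27.1, so no further normalization was applied, and log2 was taken. The 66 controls entered no test and were, after their order was restored by letter case (r = 0.952 against another set, 0.254 as stored), used only for the 3'/5' ratios. Of 12422 probe sets 10833 named 1 gene symbol, 396 several and 1193 none. A gene was taken by its brightest single-symbol probe set, and 8237 of 8251 genes matched RefSeq's table (GRCm38.p6).

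Groups followed the titles. The 14 lymph node arrays were fitted by group means in limma 3.58.1 (R 4.3.3) with 3 contrasts, without a filter, and Benjamini-Hochberg adjusted p under 0.05 was called. Figures and counts used Python with matplotlib. On simulated data with known changes and independent noise, unlike the measured arrays, the fit recovered most of the changes. That checks that the fit runs properly and not how many true changes were found here. Alternatives changed normalization, filter, pseudocount (16), arrays, blocks and the moderation of variances. Named genes are the 20 largest called differences in each direction without overlap, those passing between sites, and members of gene lists. The members and lists were chosen with earlier results of these data known. Pancreatic arrays were not used here.

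Replicate numbers are shared between groups. Same-numbered CD25+ and CD25- arrays had deviations with r = 0.16, 0.03 and 0.32 in mesenteric and 0.23, 0.02 and 0.14 in peripheral nodes, so the numbers were not taken to pair samples.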

Additional observations from a re-analysis of the deposited data

Results flagged for a closer look

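Within the 5 mesenteric CD25+ arrays, the highest or lowest level of 9 genes lay far from the other arrays by Dixon's test, out of 124 values tested, and chance alone flags about 1 in 20. In replicate 4, Ccr6 had 10.56 (next highest 9.55), Cd74 had 8.38 (next 7.14), Cd79b had 6.85 (next 5.84), Cxcr5 had 6.36 (next 5.80) and Pou2af1 had 4.93 (next 4.44). In replicate 3, Tnfrsf18 was low at 8.73 (next lowest 9.28) and Birc2 was high at 7.03 (next 6.51). In replicate 5, Trgv1 was high at 10.19 (next 10.001) and Bcl6 low at 4.65 (next lowest 5.17). The test was not run for CD25- cells.

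The CD25 difference of Eomes differed between the node sites, by 2.32 (limma adjusted p = 1.93e-06) at its dimmer probe set.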

How the results depend on the processing

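The count of 1514 probe sets stayed within 1.5 times under 8 settings, from 1054 with the actin ratio as covariate to 1747 with the 8 mesenteric arrays alone. It was 548 within the lower-numbered and 108 within the higher-numbered array run, fits with fewer arrays, and ranged from 743 to 1878 when 1 array was left out. With the replicate number as a block 748 passed, but the numbers do not pair samples, and the cause was not tested. The count between sites ranged from 1 to 2 when 1 array was left out. It was 2 with trended and robust variances, 0 among probe sets at or above the median level, where Eomes was not tested (limma, 172 at an unadjusted p under 0.05), and 0 within the higher-numbered run (limma, 429 at an unadjusted p under 0.05). The actin difference ran from 0.18 to 0.29 with 1 array left out. Too few splits then remained for its exact permutation p to fall under 0.05, so those fits could not change its side. Whichever array was left out, 74 of the 102 called genes passed.

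Signs turned only in genes that did not pass. Within the higher-numbered run, Cd79a had -0.22, Eomes -0.047, Il17a 0.028, Cd8a 0.047 and Il7r 0.024. With 1 array left out, Cd79a ranged from -0.017 to 0.165 and Eomes from -0.07 to 0.069. Eomes had -0.024 after quantile normalization, -0.037 after centring on array medians and -0.042 with the actin ratio as covariate. With each gene taken as the mean of its probe sets, rises numbered 5 in place of 3 for T helper factors and 2 in place of 1 for the cell cycle, and the other counts of rises and falls over the 24 lists kept within 1.5 times. The deposited values carry no measure of background, so the level below which a signal is unreliable is unknown.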
